A study of Mus musculus with 48 samples.

Results

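The glycolysis and hypoxia response genes described here are 34 genes for glucose uptake, glycolysis, lactate export and the cellular response to low oxygen. They were taken by their gene symbols from the 48321 rows of the deposited RNA-seq table. All 34 passed the filter on low values, which kept 16179 genes with at least 1 TPM in at least 3 of 9 libraries. TPM is the transcript level scaled by gene length and library size. The gene lengths are those of the deposited table, and how they were derived is not given. Comparisons, sums and shares across different genes are therefore approximate.

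Glycolysis splits glucose into pyruvate and yields ATP without oxygen, and most of its steps can be carried out by several isoenzymes with different kinetics and tissue distributions. Mouse embryonic stem cells export much of their pyruvate carbon as lactate, even when oxygen is present. When oxygen is low, the prolyl hydroxylases that mark hypoxia-inducible factor alpha subunits for destruction lose activity, and the stabilised factor raises glucose transporters, glycolytic enzymes, pyruvate dehydrogenase kinases and genes such as Bnip3, Vegfa and Egln3.

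RNA came from male R1 mouse embryonic stem cells of strain 129SV, grown without serum in 2i medium with LIF, which contains inhibitors of MEK and GSK3 and holds cells in a naive pluripotent state. All lines were grown on ornithine and laminin and moved to fibronectin before collection. The groups were Mll3/4 double knockout cells (dKO), cells with catalytically deficient Mll3/4 (dCD) and wild-type cells (WT), with 3 libraries each. Mll3 and Mll4 are the enzymes, encoded by Kmt2c and Kmt2d, that add the first methyl group to lysine 4 of histone H3 at enhancers. Each genotype is represented by 1 line, so an effect of the clone and one of the genotype cannot be told apart. The labels do not say that replicates were separate cultures, so every p-value below rests on the spread among 3 libraries of a line, and that spread may be technical.

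Recovered depth was 21090624 to 56249770 reads per library, and even Pfkfb4, the lowest member, had at least 109 reads in each. Kmt2c, the gene of Mll3, measured 7.995, 7.55 and 7.44 TPM in dKO, 28.6, 25.3 and 27.04 TPM in dCD and 21.6, 19.7 and 21.9 TPM in WT. Kmt2d, the gene of Mll4, was present in all lines, at 84.8, 80.5 and 83.5 TPM in dKO and 67.4, 65.2 and 66.6 TPM in WT; the edited region is not given, so total reads do not check this knockout. All 12 embryonic stem cell markers examined, among them Pou5f1, Sox2 and Nanog, averaged at least 1 TPM in every line. Of the 12, 1 was higher in dKO and 0 in dCD, against 43.4% and 28.9% of all tested genes. In either mutant line 10 of 12 were lower, against 28.4% of all tested genes in dKO and 29.5% in dCD. Their summed level was 9106 to 9194 TPM in dKO, 12453 to 12831 TPM in dCD and 16712 to 17185 TPM in WT. The part of this shift in the values below was not tested. In bulk RNA, fewer cells of a type and less RNA per cell cannot be told apart.

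The pathway did not move as a block. In dKO, the glucose transporters Slc2a1 and Slc2a3 and the lactate carrier Slc16a1 were 1.78- to 1.95-fold higher than in WT, whereas Pgk1, Aldoa, Ldha, Ldhb, Pfkl and the muscle enolase Eno3 were lower. In dCD, the 2 glucose transporters were higher by a smaller factor, Pfkl and Pfkp were lower, and Eno3, Hk1 and Vegfa were higher, which was the opposite direction to dKO. The 2 comparisons with WT share the same WT libraries.

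By limma's moderated test with Benjamini-Hochberg adjustment over all 16179 genes, 14 members rose and 14 fell in dKO against WT at an adjusted p under 0.05. This is 82.4% of the members against a background of 71.8% of all tested genes, with 43.4% of genes higher and 28.4% lower. With at least 5 TPM required in 3 libraries, 14 members were again higher and 14 lower, and the background rose to 80.9%. The median member difference was a log2 fold change of 0.012, against 0.096 for all tested genes, and the median absolute difference was 0.32 against 0.33. After median-ratio scaling, which recentres the libraries, 12 members were higher and 18 lower (88.2%, against 69.8% of all tested genes). The share of higher calls among all called genes was then 49.9% in place of 60.4%. Only Eno3 passed a 2-fold threshold as well, where the background was 6.01% higher and 7.89% lower. The dKO and WT libraries did not overlap for 16 members that were higher and 14 that were lower, against backgrounds of 45% and 29.4% of genes (74.4% in either direction).

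In dCD against WT, 10 members rose and 10 fell, or 58.8% of the members against a background of 58.4%, of which 28.9% of genes were higher and 29.5% lower. None of the 34 reached 2-fold, where the background was 4.62% higher and 2.32% lower. The dCD and WT libraries did not overlap for 12 members that were higher and 9 that were lower, against 31.2% and 32.3% of genes (63.5% in either direction). The median absolute member difference was 0.14 on the log2 scale, against 0.21 for all tested genes. In dKO against dCD, 14 members were higher and 14 lower, again 82.4%, with a background of 69.3% (42.3% higher and 27% lower). Of these, only Eno3 differed at least 2-fold, where 3.6% of genes were higher and 7.36% lower in dKO. Libraries of dKO and dCD did not overlap for 15 higher and 14 lower members, against 44.7% and 28.4% of genes (73.1% in either direction). After median-ratio scaling, 12 were higher and 17 lower (85.3%, against 66.9% of genes), with 48.9% in place of 61.0% of all calls higher. With voom on recovered reads, 13 members were higher and 19 lower in dKO against WT (94.1%, against 70.4% of genes), and 14 were higher and 11 lower in dCD against WT (73.5%, against 61.4% of genes). With at least 5 TPM required in 3 libraries, 11 members were higher and 10 lower in dCD against WT (61.8%, against 66.6% of genes). That filter left 14 higher and 14 lower in dKO against dCD, with a background of 78.4%. In dCD against WT, the share of members called was thus close to that of all genes with the main filter. It was below that of all genes with the 5 TPM filter and above it with voom. No difference between the shares was tested.

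**Figure D1:**
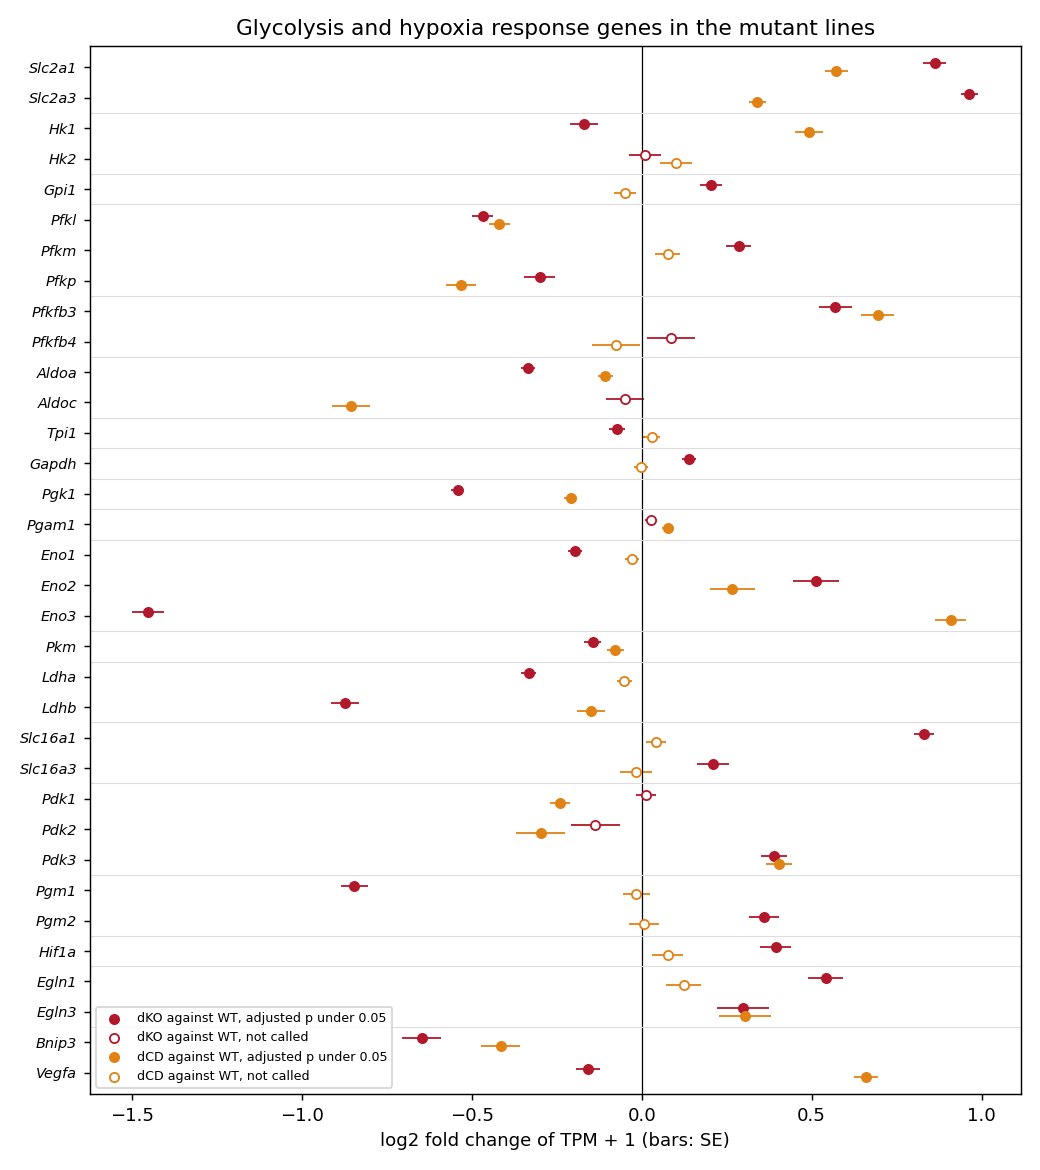
Log2 fold change of TPM + 1 (x axis) for each of the 34 members (y axis, ordered by role), in dKO against WT (dark red) and dCD against WT (orange); bars are standard errors, filled points passed an adjusted p of 0.05 and open points did not. Eno3 lies at -1.45 in dKO and 0.91 in dCD, the widest split among the members, and Slc2a1 and Slc2a3 lie to the right in both.

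Promoter windows are shown for 6 members with large changes in dKO, to set genes that rose (Slc2a1 and Slc16a1) beside genes that fell (Eno3, Ldhb, Pgk1 and Bnip3). Each is the RefSeq window of 300 bases, from 250 before to 50 after the annotated start, on build GRCm38.p6 and written 5′ to 3′ on the gene's strand. Capitals mark ACGTG or GCGTG on either strand (read as CACGT or CACGC on the other), the core of the hypoxia response element; where CACGTG occurs it holds ACGTG on both strands. The windows lie at chr4:119108495-119108794 (plus strand), chr3:104638414-104638713 (plus), chr11:70656926-70657225 (plus), chr6:142507908-142508207 (minus), chrX:106186850-106187149 (plus) and chr7:138909457-138909756 (minus).
Slc2a1: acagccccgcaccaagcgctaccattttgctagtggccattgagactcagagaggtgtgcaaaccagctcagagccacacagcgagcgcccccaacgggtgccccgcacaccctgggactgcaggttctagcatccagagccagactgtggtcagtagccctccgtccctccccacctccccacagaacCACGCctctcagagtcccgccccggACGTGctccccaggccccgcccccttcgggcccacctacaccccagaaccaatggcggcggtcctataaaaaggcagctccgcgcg
Slc16a1: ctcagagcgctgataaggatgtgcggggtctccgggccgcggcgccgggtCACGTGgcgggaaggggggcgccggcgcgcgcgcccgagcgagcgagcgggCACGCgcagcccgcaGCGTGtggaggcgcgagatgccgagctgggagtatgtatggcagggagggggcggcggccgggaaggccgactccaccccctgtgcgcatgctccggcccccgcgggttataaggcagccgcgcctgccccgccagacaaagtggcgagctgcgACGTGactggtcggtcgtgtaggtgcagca
Eno3: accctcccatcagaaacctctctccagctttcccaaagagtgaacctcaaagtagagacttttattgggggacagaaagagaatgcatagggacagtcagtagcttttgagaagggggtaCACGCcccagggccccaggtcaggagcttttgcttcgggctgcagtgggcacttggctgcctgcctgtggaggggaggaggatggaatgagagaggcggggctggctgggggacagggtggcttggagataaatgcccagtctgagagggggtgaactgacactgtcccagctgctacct
Ldhb: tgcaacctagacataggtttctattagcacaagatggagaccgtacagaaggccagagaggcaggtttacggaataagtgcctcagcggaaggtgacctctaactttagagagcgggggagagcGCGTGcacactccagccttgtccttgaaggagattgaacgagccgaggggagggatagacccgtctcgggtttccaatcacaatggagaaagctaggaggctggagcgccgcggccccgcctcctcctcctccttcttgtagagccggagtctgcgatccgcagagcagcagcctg
Pgk1: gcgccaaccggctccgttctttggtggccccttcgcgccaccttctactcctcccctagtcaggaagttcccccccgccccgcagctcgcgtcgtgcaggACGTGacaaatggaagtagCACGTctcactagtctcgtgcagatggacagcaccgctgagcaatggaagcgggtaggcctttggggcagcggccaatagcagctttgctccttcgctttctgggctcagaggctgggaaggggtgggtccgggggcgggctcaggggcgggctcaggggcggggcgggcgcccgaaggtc
Bnip3: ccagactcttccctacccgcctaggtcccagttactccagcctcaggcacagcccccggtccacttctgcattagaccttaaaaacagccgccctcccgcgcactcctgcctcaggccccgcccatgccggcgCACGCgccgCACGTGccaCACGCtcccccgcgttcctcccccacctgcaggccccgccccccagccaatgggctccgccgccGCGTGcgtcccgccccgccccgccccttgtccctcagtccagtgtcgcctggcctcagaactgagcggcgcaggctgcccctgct

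Slc16a1 and Bnip3, which moved in opposite directions in dKO, each carried 5 matches, including a CACGTG. Slc2a1 and Pgk1, also opposite in direction, carried 2 matches each, and Eno3 and Ldhb carried 1 each. Across 46 windows of 31 members, 78.3% held at least 1 match, compared with 61.3% of 13404 windows of tested genes and 43.8% of all 32851 windows in the table. ACGTG occurred in 52.2% of member windows, against 25% for tested genes, and GCGTG in 54.3% against 49.9%; CACGTG occurred in 15.2% against 9.91%. Median GC content was 61.7% in member windows and 60.7% in windows of tested genes. Some genes have several windows, and a few of these overlap and share matches, so windows are not independent. Counted by gene, 28 of 31 members held a match, against 7063 of 10540 tested genes. The members were chosen in part as hypoxia response genes, so they are not a neutral set for this core. A match is a run of letters and not a binding site, and the shares were not tested.

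Glucose enters the cells through Slc2a1 (Glut1) and the high-affinity Slc2a3 (Glut3), and both transcripts were higher in either mutant line. Slc2a1 measured 910.3, 875 and 889 TPM in dKO, 736, 705 and 747 TPM in dCD and 515, 481 and 474 TPM in WT. Slc2a3 was the more abundant per length, with 1703, 1717 and 1764 TPM in dKO, 1148, 1092 and 1122 TPM in dCD and 907, 864 and 884 TPM in WT. For both genes the lines were ordered dKO, dCD, WT with no overlap between any libraries. The log2 fold change of Slc2a1 was 0.86 (SE 0.034, adjusted p = 4.92e-09) in dKO and 0.57 (SE 0.034, adjusted p = 2.55e-07) in dCD. That of Slc2a3 was 0.96 (SE 0.026, adjusted p = 3.07e-10) in dKO, the largest increase among the members, and 0.34 (SE 0.026, adjusted p = 1.57e-06) in dCD. The direct comparison of dKO with dCD also differed, by 0.29 for Slc2a1 and 0.62 for Slc2a3. Summed over the 2 transporters, the level was 2619.8 ± 31.2 TPM in dKO, 1849.9 ± 46.5 TPM in dCD and 1375 ± 41 TPM in WT (SD, n = 3), or 1.905 and 1.35 times the WT level in dKO and dCD.

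**Figure D2:**
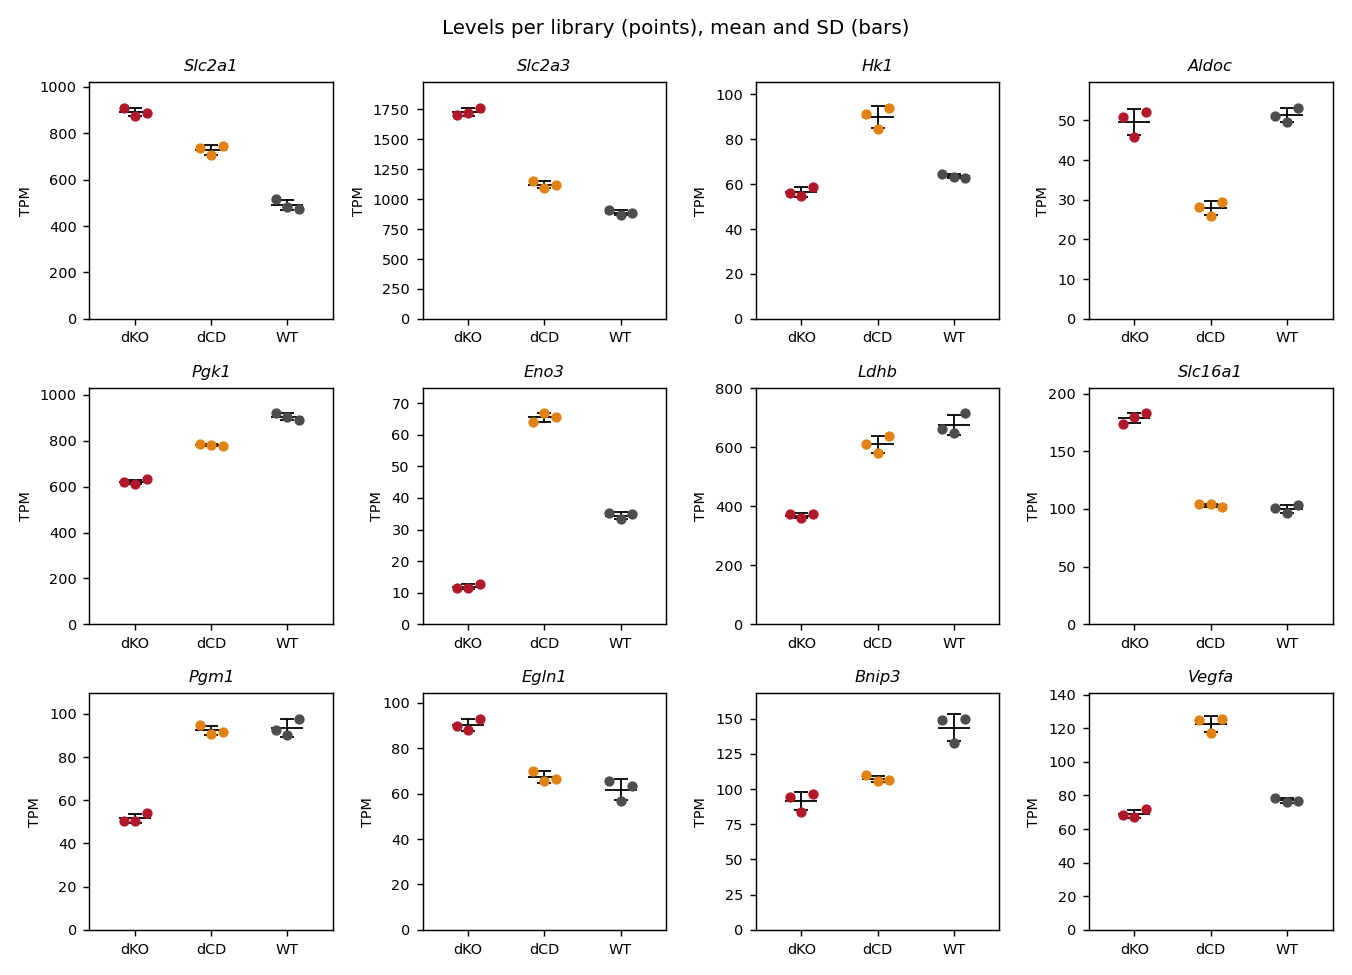
TPM per library (y axis, from 0) for 12 members in dKO, dCD and WT (x axis); points are libraries, and bars give the mean and SD of 3. Slc2a1 and Slc2a3 step down across dKO, dCD and WT, Pgk1 steps up, and Hk1, Eno3 and Vegfa are highest in dCD.

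Hexokinase traps glucose as glucose 6-phosphate, and its more abundant isoenzyme here, Hk2, averaged 383 ± 4.202 TPM in dKO, 408 ± 30.6 TPM in dCD and 379.8 ± 11.9 TPM in WT. These values overlapped and no contrast passed the test, with log2 fold changes of 0.011 in dKO (adjusted p = 0.845) and 0.10 in dCD (adjusted p = 0.0865). With voom on recovered reads the dKO value was -0.094 and passed (adjusted p = 0.0107). Hk1, the isoenzyme of most adult tissues, measured 56.2, 54.5 and 58.8 TPM in dKO, 91.3, 84.4 and 94.1 TPM in dCD and 64.7, 63.2 and 62.97 TPM in WT. All dCD libraries lay above and all dKO libraries below the WT libraries. The log2 fold change of Hk1 was -0.17 (SE 0.042, adjusted p = 0.00417) in dKO and 0.49 (SE 0.042, adjusted p = 3.83e-06) in dCD, and that of dKO against dCD was -0.66 (SE 0.042, adjusted p = 2.39e-07). Gpi1, the isomerase that makes fructose 6-phosphate, was 1.15-fold higher in dKO (log2 fold change 0.20, adjusted p = 0.000262), while dCD gave -0.050 (adjusted p = 0.228).

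Phosphofructokinase is the committed step of glycolysis, and its main isoenzyme in these cells, the liver form Pfkl, was lower in both mutant lines. Pfkl measured 446, 429 and 449 TPM in dKO, 457, 444 and 469 TPM in dCD and 633, 605 and 594 TPM in WT. Every WT library lay above every mutant library, with log2 fold changes of -0.47 (SE 0.03, adjusted p = 2.11e-07) in dKO and -0.42 (SE 0.03, adjusted p = 1.12e-06) in dCD. The mutant lines did not pass the test against each other (-0.050, adjusted p = 0.166). The platelet form Pfkp was also lower, at 173 ± 9.53 TPM in dKO and 148 ± 5.99 TPM in dCD, against 214 ± 8.07 TPM in WT, with log2 fold changes of -0.30 in dKO (adjusted p = 0.00014) and -0.53 in dCD (adjusted p = 3.65e-06). The muscle form Pfkm went the other way in dKO, with 129, 131 and 136 TPM in dKO against 109.6, 107 and 107 TPM in WT and no overlap (log2 fold change 0.29 (SE 0.036, adjusted p = 4.32e-05)). The dCD libraries held 110.1, 111 and 121 TPM, and the difference of 0.077 from WT did not pass (adjusted p = 0.0968). The 3 forms summed to 746 ± 21.8 TPM in dKO and 718 ± 22.6 TPM in dCD, against 932 ± 25.03 TPM in WT.

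Pfkfb3 makes fructose 2,6-bisphosphate, the strongest activator of phosphofructokinase, and rose in both lines. It measured 26.1, 26.4 and 27.9 TPM in dKO, 30.04, 28.1 and 29.8 TPM in dCD and 18.5, 16.5 and 18.2 TPM in WT. The mutant libraries all lay above WT, with log2 fold changes of 0.57 (SE 0.049, adjusted p = 2.17e-06) in dKO and 0.69 (SE 0.049, adjusted p = 1.02e-06) in dCD. Its relative Pfkfb4 stayed near 3.74 TPM in dKO, 3.24 TPM in dCD and 3.46 TPM in WT, and no contrast passed the test (adjusted p of 0.288 in dKO and 0.381 in dCD).

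Aldolase cleaves fructose 1,6-bisphosphate, and its ubiquitous form Aldoa made up 97.4% of the aldolase level in dKO, 98.8% in dCD and 97.9% in WT, with 1890.4 TPM in dKO, 2214 TPM in dCD and 2384 TPM in WT. It was lower in both lines, with log2 fold changes of -0.33 (SE 0.022, adjusted p = 2.36e-07) in dKO and -0.11 (SE 0.022, adjusted p = 0.00178) in dCD. Aldoc, the brain form, was lower in dCD, with 28.2, 26.03 and 29.5 TPM in dCD against 51.2, 49.5 and 53.2 TPM in WT. In dKO it measured 50.8, 45.9 and 52 TPM, which overlapped with WT. The log2 fold changes of Aldoc were -0.050 in dKO (adjusted p = 0.442) and -0.86 (SE 0.056, adjusted p = 5.50e-07) in dCD, and the lines differed by 0.81 (SE 0.056, adjusted p = 4.82e-07). Tpi1, which interconverts the 2 triose phosphates, changed least among the called members, by -0.073 in dKO (adjusted p = 0.0196), a call lost without dKO replicate 2 (adjusted p = 0.0762), without WT replicate 1 (adjusted p = 0.0752) and under quantile normalization. In dCD the difference was 0.029 (adjusted p = 0.327).

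In the payoff phase of the pathway, Pgk1 had the largest reduction in dKO next to Eno3 and Ldhb. Pgk1, the kinase of the first step that forms ATP, measured 619.6, 613 and 632 TPM in dKO, 788, 781 and 778 TPM in dCD and 921, 902 and 891 TPM in WT, so the 3 lines did not overlap. The log2 fold changes were -0.54 (SE 0.02, adjusted p = 2.71e-09) in dKO and -0.21 (SE 0.02, adjusted p = 7.88e-06) in dCD, and dKO lay below dCD by -0.33 (adjusted p = 1.38e-07). Gapdh, which oxidises the triose phosphate upstream of it, was 1.101-fold higher in dKO (log2 fold change 0.14, adjusted p = 0.000161), but this call was lost after median-ratio scaling (adjusted p = 0.253) and with voom on recovered reads (adjusted p = 0.168). Gapdh in dCD gave -0.0015 (adjusted p = 0.958). Pgam1, the mutase of the next step, averaged 1718 TPM in dKO, 1778 TPM in dCD and 1686 TPM in WT. The log2 fold changes of Pgam1 were 0.027 in dKO (adjusted p = 0.184, but -0.076 with adjusted p = 0.00499 after median-ratio scaling) and 0.077 in dCD (adjusted p = 0.00356). Gapdh, Pgk1, Pgam1, Aldoa and Ldha have processed pseudogenes, and how reads with several matches were counted is not given, so their small differences are less certain.

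Among single members, the muscle enolase Eno3 differed most between the mutant lines, although it was a small part of the summed enolase level. Eno3 measured 11.5, 11.5 and 12.9 TPM in dKO, 64.1, 66.8 and 65.7 TPM in dCD and 35.3, 33.3 and 34.8 TPM in WT. It was thus 0.347 times the WT level in dKO and 1.903 times in dCD, with no overlap between any of the lines. The log2 fold changes were -1.45 (SE 0.046, adjusted p = 1.08e-09) in dKO, 0.91 (SE 0.046, adjusted p = 8.58e-08) in dCD and -2.36 (SE 0.046, adjusted p = 4.45e-11) for dKO against dCD. Of 11 skeletal muscle markers, Acta1 and Des reached the filter, while Myod1, Myog, Myf6 and Ckm averaged under 1 TPM in all lines. The marker sum was 14.9 to 17.3 TPM in dKO, 103 to 105 TPM in dCD and 14.2 to 16.0 TPM in WT, and its part in the Eno3 values was not tested. Acta1 averaged 8.77 ± 0.820 TPM in dKO, 71.2 ± 0.977 TPM in dCD and 0.143 ± 0.176 TPM in WT, and Des 6.7 ± 0.545 TPM in dKO, 31.98 ± 0.844 TPM in dCD and 14.4 ± 0.698 TPM in WT.

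Eno1, the ubiquitous form, dominated the step with 1187 ± 6.15 TPM in dKO, 1334 ± 13.5 TPM in dCD and 1360.1 ± 35.8 TPM in WT. Its log2 fold change was -0.20 in dKO (adjusted p = 1.28e-05) and -0.028 in dCD (adjusted p = 0.29). Eno1 has a near-identical retrogene copy, Eno1b, listed at 466 TPM in dKO, 529 TPM in dCD and 528 TPM in WT, so the split of reads between them is uncertain. The neuronal form Eno2 was low and rose in both lines, with 8.65, 7.93 and 8.79 TPM in dKO, 7.11, 6.41 and 7.42 TPM in dCD and 5.87, 5.69 and 5.31 TPM in WT. The lines did not overlap, and the log2 fold change was 0.51 in dKO (adjusted p = 5.06e-05) and 0.27 in dCD (adjusted p = 0.00602). Summed neuron markers were 323 to 334 TPM in dKO, 315 to 329 TPM in dCD and 469 to 486 TPM in WT. Of the 7 neuron markers tested, 1 rose and 4 fell in dKO, and 1 rose and 5 fell in dCD. Of all tested genes, 28.4% fell in dKO and 29.5% in dCD. The part of these markers in the Eno2 values was not tested.

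Pkm, the pyruvate kinase, was the most abundant member per length, with 5860.3, 5833 and 5860.3 TPM in dKO, 6049, 6063 and 6276 TPM in dCD and 6650.4, 6485 and 6263 TPM in WT. The dKO libraries lay below all WT libraries, with a log2 fold change of -0.14 (SE 0.025, adjusted p = 0.000401). The dCD libraries overlapped with WT, and the difference of -0.077 (adjusted p = 0.0221) was lost without dCD replicate 1, dCD replicate 2, WT replicate 1 or WT replicate 2 (adjusted p of 0.0585 to 0.0775), after median-ratio scaling (adjusted p = 0.0531) and with no filter on low values (adjusted p = 0.116). Quantile normalization turned both directions, to 0.00094 in dKO and 0.048 in dCD. The M1 and M2 splice forms share this row and were not told apart.

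Lactate dehydrogenase reduces pyruvate to lactate, and both subunits fell in dKO. The heart subunit Ldhb measured 373, 359 and 373 TPM in dKO, 610.4, 581 and 638 TPM in dCD and 663, 649.6 and 715 TPM in WT. The dKO libraries stood far below the others, while the highest dCD and lowest WT libraries were close but did not overlap. The log2 fold change of Ldhb was -0.87 (SE 0.041, adjusted p = 2.02e-08) in dKO and -0.15 (SE 0.041, adjusted p = 0.0106) in dCD. The muscle subunit Ldha measured 1549, 1548 and 1551 TPM in dKO, 1893, 1884 and 1871 TPM in dCD and 2010.1, 1953 and 1890.4 TPM in WT. Ldha had a log2 fold change of -0.33 in dKO (adjusted p = 3.04e-07), and dCD gave -0.051 (adjusted p = 0.0743) with overlapping libraries. The 2 subunits summed to 1918 ± 9.45 TPM in dKO, 2492 ± 23.9 TPM in dCD and 2627 ± 39.7 TPM in WT.

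The carriers that export lactate moved opposite to the dehydrogenase in dKO. Slc16a1 (Mct1) measured 174, 179.6 and 183 TPM in dKO, 104, 104 and 102 TPM in dCD and 100.5, 96.8 and 103 TPM in WT, so dKO stood alone and dCD overlapped with WT. Its log2 fold change was 0.83 (SE 0.029, adjusted p = 2.34e-09) in dKO and 0.043 in dCD (adjusted p = 0.24), and dKO exceeded dCD by 0.79 (SE 0.029, adjusted p = 4.45e-09). Slc16a3 (Mct4), the low-affinity exporter of glycolytic cells, was 1.16-fold higher in dKO (0.21, adjusted p = 0.00243, but adjusted p = 0.0667 after median-ratio scaling). In dCD the Slc16a3 difference was -0.017 (adjusted p = 0.783).

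**Figure D3:**
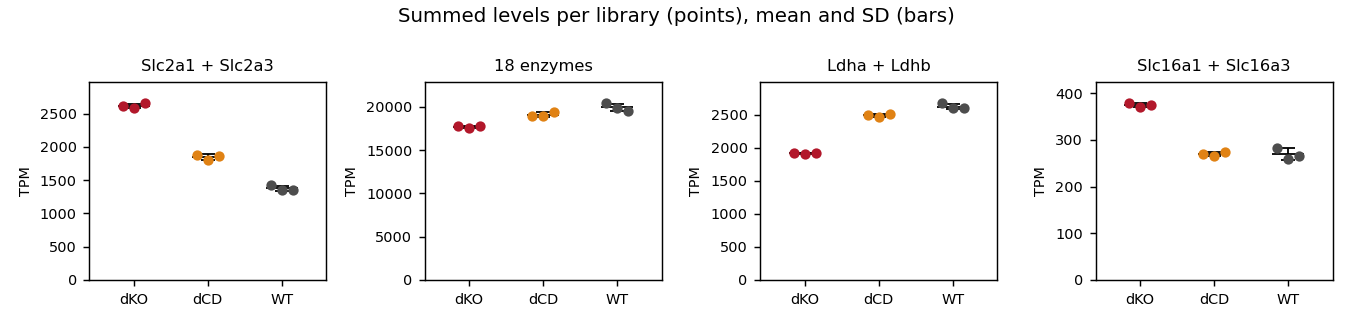
Summed TPM per library (y axis, from 0) of the 2 glucose transporters, 18 enzymes from hexokinase to lactate dehydrogenase, the 2 lactate dehydrogenase subunits and the 2 lactate carriers, in dKO, dCD and WT (x axis); points are libraries, and bars give the mean and SD of 3. Transporter sums are highest in dKO, whereas the enzyme and dehydrogenase sums are lowest there.

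Together the 18 enzymes from hexokinase to lactate dehydrogenase took up 1.77% of all TPM in dKO, 1.91% in dCD and 1.99% in WT. The sum was 17766, 17529 and 17735 TPM in dKO, 18987, 18906 and 19384 TPM in dCD and 20378, 19895 and 19537 TPM in WT. The libraries of the 3 lines did not overlap, and the dKO sum was 0.887 times and the dCD sum 0.958 times that of WT. An exact permutation test of 3 libraries against 3, two-sided, cannot go below p = 0.1, which is the value both comparisons gave. Median-ratio scaling widened the dKO difference from WT, a mean of -2259.9 TPM, to -3556 TPM.

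Within several steps the balance of isoenzymes, taken as shares of the summed TPM, differed between dKO and WT. Slc16a1 held 47.8% ± 1.51 of the carrier level in dKO, 38.2% ± 1.096 in dCD and 37.2% ± 1.67 in WT (SD, n = 3). Ldha held 80.8% ± 0.318 of lactate dehydrogenase in dKO, 75.5% ± 0.925 in dCD and 74.3% ± 1.49 in WT. Pfkm held 17.7% ± 0.397 of phosphofructokinase in dKO, 15.9% ± 0.468 in dCD and 11.6% ± 0.145 in WT. The dKO and WT libraries did not overlap in any of these shares, and for Pfkm neither did those of dCD and WT. Hk1 held 12.9% ± 0.310 of hexokinase in dKO, 18.1% ± 0.484 in dCD and 14.4% ± 0.203 in WT. The exact permutation test gave at least p = 0.1 for every share, the smallest that 3 libraries against 3 allow.

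**Figure D4:**
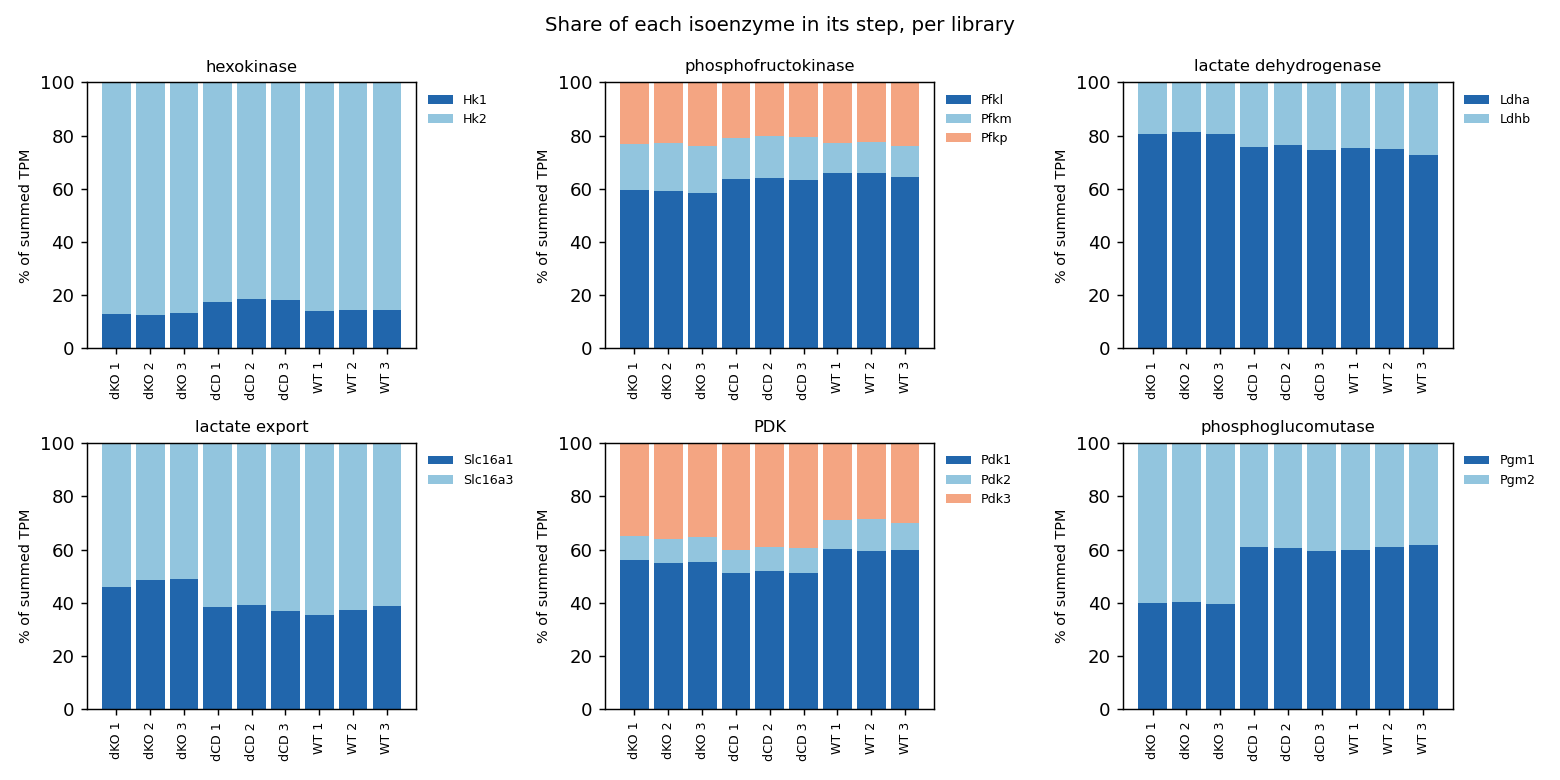
Percent of the summed TPM of a step (y axis) held by each isoenzyme in each library (x axis, dKO, dCD and WT replicates 1 to 3) for 6 steps. The Slc16a1 share is larger in the dKO libraries, the Pfkm share is smallest in WT, and the Pgm1 and Pgm2 shares change places in dKO.

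Pyruvate dehydrogenase kinases hold pyruvate back from the mitochondria, and the 3 members moved unequally. Pdk3 rose in both lines, with 45.3, 49.9 and 48.1 TPM in dKO, 49.2, 47.4 and 48.2 TPM in dCD and 37.03, 35.1 and 36.6 TPM in WT. All mutant libraries exceeded WT, with log2 fold changes of 0.39 (SE 0.039, adjusted p = 6.40e-06) in dKO and 0.40 (SE 0.039, adjusted p = 9.13e-06) in dCD. Pdk1, the most abundant and a known hypoxia target, was lower in dCD, with 62.3, 63.3 and 62.6 TPM in dCD against 76.9, 72.9 and 72.9 TPM in WT (-0.24 (SE 0.03, adjusted p = 5.87e-05)). In dKO it measured 72.8, 76.5 and 75.3 TPM and overlapped with WT (0.013, adjusted p = 0.709, but -0.089 with adjusted p = 0.0183 after median-ratio scaling). Pdk2 averaged 12.5 ± 0.771 TPM in dKO, 11.1 ± 0.783 TPM in dCD and 13.8 ± 1.17 TPM in WT, and passed the test in dCD (-0.30, adjusted p = 0.00505) but not in dKO (-0.14, adjusted p = 0.113).

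Phosphoglucomutases link glycolysis to glycogen, and the 2 rows moved in opposite directions in dKO. The row Pgm1 measured 50.2, 50.3 and 54.2 TPM in dKO, 94.9, 90.6 and 91.7 TPM in dCD and 92.5, 90.05 and 97.8 TPM in WT. The row Pgm2 measured 75.97, 74.3 and 83.1 TPM in dKO, 60.5, 59.4 and 62.1 TPM in dCD and 61.99, 57.97 and 61.1 TPM in WT. In both rows dKO stood apart and dCD overlapped with WT. The log2 fold changes in dKO were -0.85 (SE 0.039, adjusted p = 1.83e-08) for Pgm1 and 0.36 (SE 0.043, adjusted p = 2.83e-05) for Pgm2, and in dCD -0.015 (adjusted p = 0.761) and 0.0070 (adjusted p = 0.903). The symbols Pgm1 and Pgm2 were exchanged between releases of mouse gene names, so which enzyme either row stands for is not settled here.

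Among the oxygen-sensing members, Hif1a, the inducible subunit, and Egln1, the main oxygen-dependent hydroxylase that marks it for destruction, both rose in dKO. Hif1a measured 67.1, 70.9 and 70.8 TPM in dKO, 56.7, 56.97 and 53.2 TPM in dCD and 53.8, 49.3 and 55.2 TPM in WT, and Egln1 measured 90.03, 87.9 and 93.1 TPM in dKO, 70.2, 65.6 and 66.3 TPM in dCD and 65.6, 56.6 and 63.4 TPM in WT. For Hif1a the dKO libraries stood clear of WT and the dCD libraries did not, while for Egln1 the dCD libraries lay at or just above the highest WT library. In dKO the log2 fold change was 0.39 (SE 0.046, adjusted p = 2.02e-05) for Hif1a and 0.54 (SE 0.051, adjusted p = 4.35e-06) for Egln1. In dCD it was 0.076 (adjusted p = 0.178) and 0.12 (adjusted p = 0.0611). Transcript levels of Hif1a do not measure its protein, which is controlled mainly by degradation.

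Genes that the factor induces did not share a direction. Egln3, the hydroxylase induced as feedback, measured 74.1, 63.7 and 73.3 TPM in dKO, 70.5, 68.01 and 72.8 TPM in dCD and 60.9, 50.3 and 60.02 TPM in WT, and neither mutant line overlapped with WT. Its log2 fold changes were 0.30 (SE 0.076, adjusted p = 0.00497) in dKO and 0.30 (SE 0.076, adjusted p = 0.00616) in dCD. Bnip3, a mitophagy receptor, fell instead, with 94.2, 83.8 and 96.2 TPM in dKO, 109.9, 106 and 106 TPM in dCD and 149, 132 and 150.0 TPM in WT. The 3 lines did not overlap for Bnip3, and its log2 fold changes were -0.65 (SE 0.058, adjusted p = 2.77e-06) in dKO and -0.41 (SE 0.058, adjusted p = 0.000137) in dCD. Vegfa, the vascular growth factor, measured 68.3, 67.1 and 71.9 TPM in dKO, 125, 117 and 126 TPM in dCD and 78.7, 75.8 and 76.8 TPM in WT. All dCD libraries lay above WT and all dKO libraries below, with -0.16 (SE 0.035, adjusted p = 0.00242) in dKO, 0.66 (SE 0.035, adjusted p = 1.25e-07) in dCD and -0.82 (SE 0.035, adjusted p = 1.33e-08) between them.

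Of 15 other subunits and regulators of the factor, 7 rose and 4 fell in dKO, and 5 rose and 2 fell in dCD. Of all tested genes, 43.4% rose and 28.4% fell in dKO, and 28.9% rose and 29.5% fell in dCD, so the dKO counts lay near these shares. The median log2 fold change of the 15 was 0.16 in dKO and 0.038 in dCD, against 0.096 in dKO and -0.009 in dCD for all tested genes. Epas1, the alternative alpha subunit (HIF-2 alpha), measured 23.8, 23.03 and 22.04 TPM in dKO, 93.6, 83.2 and 93.4 TPM in dCD and 93.2, 93.2 and 95.1 TPM in WT. Its log2 fold change was -1.99 (SE 0.046, adjusted p = 1.16e-10) in dKO, while dCD overlapped with WT (-0.061, adjusted p = 0.285). Cited2, which competes with the factor for its coactivators, rose to 270.0 TPM in dKO and 251 TPM in dCD, against 143 TPM in WT (log2 fold changes 0.91 in dKO and 0.80 in dCD). Egln2, the third prolyl hydroxylase, was higher in dKO (0.48) and the ubiquitin ligase scaffold Cul2 lower (-0.42). In dCD the ligase subunits Tceb1 and Vhl were higher (0.52 and 0.25), and Arnt2, a partner of the alpha subunits, was lower (-0.44).

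**Figure D5:**
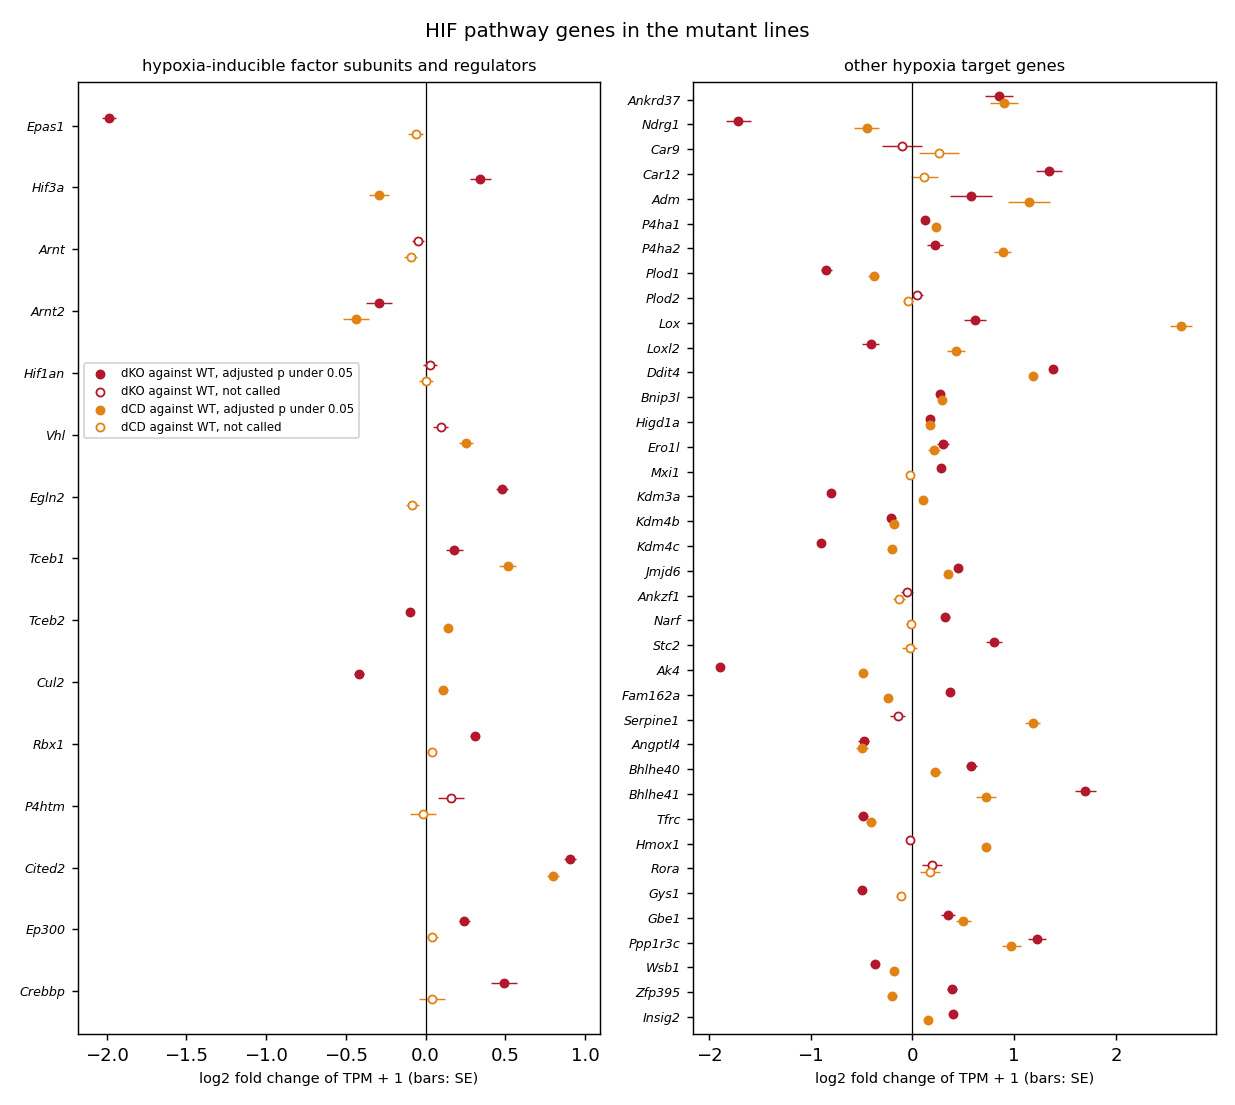
Log2 fold change of TPM + 1 (x axis) of hypoxia-inducible factor subunits and regulators (left) and other hypoxia target genes (right), in dKO against WT (dark red) and dCD against WT (orange); bars are standard errors and open points did not pass an adjusted p of 0.05. Epas1 and Ak4 lie near -2 in dKO, Ddit4 lies above 1 in both lines, and Lox is at 2.64 in dCD.

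Of 38 tested targets of hypoxia outside the 34 members, 21 rose and 11 fell in dKO, and 19 rose and 10 fell in dCD, with median log2 fold changes of 0.21 in dKO and 0.16 in dCD. Of all tested genes, 43.4% rose and 28.4% fell in dKO (median 0.096), and 28.9% rose and 29.5% fell in dCD (median -0.009). Ddit4, an inhibitor of mTORC1 signalling, rose to 166 ± 2.17 TPM in dKO and 145 ± 8.87 TPM in dCD, against 62.99 ± 1.41 TPM in WT (log2 fold changes 1.38 in dKO and 1.19 in dCD). Ak4, a mitochondrial adenylate kinase, fell to 58.5 ± 1.62 TPM in dKO and 156 ± 5.43 TPM in dCD, against 219 ± 5.27 TPM in WT (-1.89 in dKO and -0.49 in dCD). The histone demethylases Kdm3a and Kdm4c were lower in dKO (-0.80 and -0.90). In dCD, Lox, which crosslinks collagen, measured 5.38 TPM against 0.0234 TPM in WT (2.64), and the heme oxygenase Hmox1 rose by 0.72. Summed fibroblast markers were 179 to 201 TPM in dKO, 976 to 1060.3 TPM in dCD and 10.8 to 13.4 TPM in WT, mostly Acta2 and Tagln. Of the 7 fibroblast markers tested, 5 rose and 1 fell in dKO, each at least 2-fold, and 7 rose in dCD. In dKO, 6.01% of all tested genes were at least 2-fold higher and 7.89% at least 2-fold lower. The collagen gene Col1a1 averaged 10.2 TPM in dKO and 7.57 TPM in dCD, against 0.470 TPM in WT, and Col1a2 averaged 1.28 TPM in dKO and 6.45 TPM in dCD, against 0.0189 TPM in WT. Col3a1 also rose in both lines (1.07 in dKO and 1.14 in dCD) and Pdgfrb in dCD (0.82), while Lum, S100a4, Postn, Dcn and Pdgfra averaged under 1 TPM in all lines. The part of these markers in the Lox values was not tested.

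Of 22 tested isoenzymes and carriers outside the 34 members, 5 rose and 12 fell in dKO, and 5 rose and 7 fell in dCD, with median log2 fold changes of -0.14 in dKO and -0.031 in dCD. The background shares were 43.4% rising and 28.4% falling in dKO, with a median of 0.096, and 28.9% rising and 29.5% falling in dCD, with a median of -0.009. Tigar, a phosphatase that lowers fructose 2,6-bisphosphate, measured 39.1 ± 1.36 TPM in dKO, 93.7 ± 2.52 TPM in dCD and 94.8 ± 0.410 TPM in WT (log2 fold change in dKO -1.26, adjusted p = 1.72e-10). The intracellular transporter Slc2a8 was lower in both lines, at 26.1 ± 1.42 TPM in dKO and 26.7 ± 1.03 TPM in dCD, against 48.2 ± 1.66 TPM in WT. Minpp1 and Bpgm, which act on bisphosphoglycerate, rose in both (0.61 and 0.56 in dKO, 0.32 and 0.27 in dCD). The testis subunit Ldhc was lower in dKO, at 1.11 TPM against 4.04 TPM in WT.

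Of 14 genes for pyruvate entry into the mitochondria, 9 fell and 4 rose in dKO, with a median log2 fold change of -0.215, and 3 fell and 2 rose in dCD, with a median of -0.034. The background in dKO was 28.4% of genes lower and 43.4% higher, and in dCD 29.5% lower and 28.9% higher. The pyruvate carrier subunit Mpc1 measured 6.17 ± 0.918 TPM in dKO, 17.6 ± 0.418 TPM in dCD and 18.2 ± 1.48 TPM in WT (-1.43 in dKO, adjusted p = 1.59e-07). Pyruvate carboxylase, Pcx, was lower in both lines, at 18.3 ± 0.591 TPM in dKO and 20.5 ± 0.678 TPM in dCD, against 35.2 ± 1.43 TPM in WT. Pdha1, the catalytic subunit of pyruvate dehydrogenase, fell in dKO (-0.37), while the shared dehydrogenase subunit Dld rose in both (0.52 in dKO and 0.38 in dCD). Of the 4 gluconeogenesis genes tested, 3 rose and 1 fell in either line, with medians of 0.49 in dKO and 0.67 in dCD. Fbp2, the muscle fructose bisphosphatase, measured 7.41, 7.33 and 6.35 TPM in dKO, 71.98, 73.2 and 66 TPM in dCD and 4.46, 4.65 and 5.81 TPM in WT, a log2 fold change of 3.58 (SE 0.087, adjusted p = 5.21e-10) in dCD. Fbp1 fell in dKO to 0.135 TPM and rose in dCD to 4.02 TPM, against 1.504 TPM in WT.

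Of 13 glycogen genes, 8 rose and 2 fell in dKO, and 7 rose and 2 fell in dCD, with medians of 0.35 in dKO and 0.50 in dCD, where 43.4% of all tested genes rose and 28.4% fell in dKO (median 0.096) and 28.9% rose and 29.5% fell in dCD (median -0.009); Gys1, Gbe1 and Ppp1r3c are also among the hypoxia targets. Gyg, the glycogenin primer of glycogen, measured 12.9 ± 0.550 TPM in dKO and 13.8 ± 1.01 TPM in dCD, against 4.84 ± 0.303 TPM in WT (1.25 in dKO and 1.34 in dCD). The phosphatase targeting subunit Ppp1r3b rose in both lines (1.07 in dKO and 1.24 in dCD), and the muscle phosphorylase Pygm fell (-1.26 in dKO and -0.72 in dCD). In the pentose phosphate pathway, 5 of 10 rose and 3 fell in dKO, and 5 rose and 4 fell in dCD, with medians of 0.027 in dKO and 0.011 in dCD; the counts in dKO lay near the shares of all genes just given. Prps2, which makes phosphoribosyl pyrophosphate, was 95.4 ± 2.35 TPM in dKO, 29.5 ± 0.607 TPM in dCD and 56.3 ± 2.01 TPM in WT, opposite in direction in the mutant lines (0.75 in dKO and -0.91 in dCD). Among 23 regulators of glycolysis, 10 rose and 10 fell in dKO, and 5 rose and 13 fell in dCD, with medians of -0.012 in dKO and -0.135 in dCD; the share that rose in dKO was again near that of all genes (43.4%), and 29.5% of all genes fell in dCD. The Myc family factor Mycn rose to 284 TPM in dKO, against 146 TPM in WT. Of the RNA-binding proteins that block let-7 maturation, Lin28b rose to 34.9 TPM in dKO, against 6.89 TPM in WT, and Lin28a fell to 74.9 TPM in dKO, against 217 TPM in WT. In dCD, Esrrb, also an embryonic stem cell marker, was lower (-0.81), as were Tsc2, an inhibitor of mTORC1 (-0.39), and Txnip, which restrains glucose uptake (-0.55). No dCD values are given here for the 5 regulators that rose in that line.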

How the data were processed

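Polyadenylated RNA was sequenced from 3 lines, dKO, dCD and WT, with 3 libraries each; the other assays of the series were not used here. The deposited table gives TPM per gene and library with gene lengths in bases, per the file headers. Per the submitters' processing notes, the authors used HISAT2, featureCounts and DESeq2 with build mm9; their versions, the annotation, the use of strand and the handling of multi-mapped reads were not given in the sources used here. Reads of overlapping or antisense genes are therefore not separable.

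Every TPM multiplied by its gene length was a whole multiple of 1 read (100% of values within 0.01), which gave the depths. Counts of replicate pairs differed beyond sampling noise (chi-square per degree of freedom 1.58 to 4.14), so none was counted as a duplicate. Genes with at least 1 TPM in at least 3 of 9 libraries were tested on log2(TPM + 1) with limma 3.58.1 (R 4.3.3; eBayes with trend), all libraries in 1 fit, two-sided, with Benjamini-Hochberg adjustment over 16179 genes and a threshold of 0.05. The added 1 TPM makes fold changes of weakly expressed genes too small; values given as times or -fold are ratios of mean TPM. Shares and sums were computed with Python 3.11.15, pandas 2.3.3, numpy 2.4.6 and scipy 1.17.1, and figures with matplotlib 3.10.9.

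The members, the gene lists and the tests were chosen with earlier results of these data known. All 34 members are named; of every other list, up to 4 called genes per comparison with WT were eligible by adjusted p, with both directions where both occurred. Alternatives were a pseudocount of 0.1, no filter, a filter of 5 TPM, median-ratio scaling, quantile normalization, voom on recovered reads, a replicate block, fits of only the 2 lines compared and leaving out each library. Promoter windows were matched by symbol for 33 of the 34 members, all but Slc2a3, and Pgm1 and Pgm2 were left out because their symbols were exchanged. Protein sequences were not analysed here.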

Additional observations from a re-analysis of the deposited data

Results flagged for a closer look

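For 3 members the mutant lines moved in opposite directions relative to WT, and the direct comparison of dKO with dCD passed limma's test with Benjamini-Hochberg adjustment. The share of all tested genes that meet this rule was not computed, so the count has no background. The single comparisons called 71.8% of genes in dKO against WT, 58.4% in dCD against WT and 69.3% in dKO against dCD. Eno3 differed by -2.36 on the log2 scale (adjusted p = 4.45e-11), with 3 of 3 dKO libraries below and 3 of 3 dCD libraries above every WT library. Vegfa differed by -0.82 (adjusted p = 1.33e-08) and Hk1 by -0.66 (adjusted p = 2.39e-07), with the same arrangement of libraries. All 3 differences kept their direction and call under the 17 alternatives that were run.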

How the results depend on the processing

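Of the called members, 24 of 28 in dKO against WT, 18 of 20 in dCD against WT and 23 of 28 in dKO against dCD kept direction and call under all 17 alternatives. The exceptions were Tpi1, Gapdh, Pkm and Slc16a3 in dKO, Pgam1 and Pkm in dCD, and Pfkfb3, Gapdh, Pgam1, Eno2 and Pkm between the mutant lines. Quantile normalization put 1 member at least 2-fold higher in dKO. Signs that turned belonged to small differences. After median-ratio scaling, log2 fold changes in dKO were -0.092 for Hk2, -0.076 for Pgam1 and -0.089 for Pdk1, and Gapdh in dCD was 0.00045. With voom they were -0.094, -0.076 and -0.090, and 0.00028. Quantile normalization gave 0.00094 for Pkm and -0.039 for Pdk1 in dKO, 0.048 for Pkm and -0.0025 for Pgm2 in dCD, and 0.044 for Pgam1 in dKO against dCD. The cause of these turns was not tested.

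Leaving out each library in turn gave ranges across 0 for Hk2 (-0.0077 to 0.036), Aldoc (-0.085 to 0.0027) and Pdk1 (-0.0027 to 0.039) in dKO. The same held for Gapdh (-0.015 to 0.011), Slc16a3 (-0.046 to 0.039), Pgm1 (-0.042 to 0.017) and Pgm2 (-0.021 to 0.026) in dCD, and for Pdk3 (-0.047 to 0.022) and Egln3 (-0.043 to 0.064) between the mutant lines.

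Shares of recovered reads, which weight longer genes more by construction, differed in size from shares of TPM. Differences from WT in dKO, in percentage points, were -1.90 for Hk1, -4.57 for Pfkl, 3.48 for Pfkm, 1.09 for Pfkp, 2.94 for Pfkfb3, 0.227 for Eno1, 0.260 for Eno2, -0.487 for Eno3, 3.99 for Ldha, -2.60 for Pdk1, -0.830 for Pdk2 and 3.43 for Pdk3. In dCD they were 2.81 for Slc2a1, 4.64 for Hk1, 2.66 for Pfkm, 4.54 for Pfkfb3, 0.752 for Aldoa, -0.839 for Eno1, 0.747 for Eno3, -5.40 for Pdk1, -0.714 for Pdk2 and 6.12 for Pdk3, and Pfkl turned from -1.91 to 0.244. The summed enzyme level differed by -3556 TPM between dKO and WT after median-ratio scaling.

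No pairing by replicate number was seen. Deviations of same-numbered libraries correlated by -0.049 to 0.042, and those of other-numbered libraries by -0.065 to 0.073. With 3 libraries per line, this cannot exclude batches shared between lines. With a replicate block, 14 members were higher and 14 lower in dKO, 11 and 10 in dCD, and 14 and 13 between the mutant lines. These were 82.4%, 61.8% and 79.4% of the members, against 71.3%, 57.3% and 68.7% of all tested genes.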

Other observations

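The genes that flank the members with the strongest changes were also examined, taking the nearest tested protein-coding genes on each side in a GRCm38 gene order. Some of those near Slc2a3, Ldhb, Slc16a1 and Eno3 are given here. Slc2a3 lies beside the pluripotency genes Nanog and Dppa3. Dppa3 was lower, at 0.854 ± 0.558 TPM in dKO and 4.104 ± 0.746 TPM in dCD, against 8.91 ± 0.418 TPM in WT, and Nanog averaged 957 TPM in dKO, 1116 TPM in dCD and 1234 TPM in WT, while Slc2a3 rose in both lines. Foxj2, on its other side, was higher, with log2 fold changes of 0.68 in dKO and 0.39 in dCD.

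St8sia1, a sialyltransferase gene near Ldhb, averaged 3.72 ± 0.179 TPM in dKO, 17.2 ± 0.880 TPM in dCD and 18.4 ± 0.687 TPM in WT, lower in dKO as Ldhb was, whereas Cmas and Golt1b, which lie closer to Ldhb, were higher in dKO (0.51 and 0.35). Rhoc, near Slc16a1, averaged 104 ± 2.35 TPM in dKO and 107 ± 1.84 TPM in dCD, against 53.4 ± 1.34 TPM in WT, although Slc16a1 was higher than WT in dKO and overlapped with WT in dCD. Lrig2 and Ppm1j, which lie closer to Slc16a1, gave log2 fold changes of -0.35 and -0.051 in dKO and -0.27 and -0.50 in dCD. Magi3, beyond Lrig2, gave 0.60 in dKO and 0.35 in dCD. Pfn1, beside Eno3, gave 0.047 in dKO (adjusted p = 0.126) and 0.35 in dCD (adjusted p = 1.40e-06), and Rnf167 moved opposite to Eno3 in both lines (0.29 in dKO and -0.34 in dCD). These neighbours were chosen after the members' values were seen.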
